A study of Mus musculus with 6 samples.

Results

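The comparison described here set colonic immune cells of flora-depleted mice beside those of mice with an intact gut flora, both on day 7 of dextran sulfate sodium (DSS), a polysaccharide given in drinking water that injures the colonic epithelium. It used the 2 day 7 libraries of a series of 6, one labelled pGF (pseudo germ-free) and one labelled SPF (specific pathogen free). A barcode was kept where it held UMIs (unique molecules) of 200 or more genes and no more than 10% of them were mitochondrial, which left 6547 of 7003 pGF barcodes and 10633 of 11629 SPF barcodes. These were 17180 of the 31304 barcodes kept over the whole series.

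All mice were wild type. The SPF mice had received DSS for 7 days and no antibiotic is named for them. The pGF mice had first received antibiotics for 4 weeks, and then antibiotics and DSS together for 7 days, so antibiotic exposure and loss of flora cannot be told apart, and the matrices hold no measurement of the flora itself. The colon was freed of epithelium with EDTA, digested enzymatically (Liberase TL, DNase I), and its leukocytes were sorted by the surface protein CD45 before droplet capture with a 5' Chromium kit. Each group was 1 library, the number of animals in it is not given in the sources used here, and no difference below has a replicate check. Every value therefore compares 2 libraries, not 2 conditions, and no test was made.

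The colon wall holds several T cell populations. Intraepithelial T cells carry either a γδ receptor or an αβ receptor, often with CD8 as an αα homodimer, and are known for a resident, granzyme-rich state. T cells with CD8αβ or CD4 are mostly recruited from the circulation, and the Foxp3+ regulatory subset restrains inflammation. B cells and IgA-secreting plasma cells serve mucosal antibody production. Gut macrophages are replenished by blood monocytes, which arrive in an inflammatory state and acquire a scavenging, homeostatic one, and dendritic cells carry antigen to T cells after a maturation programme marked by Ccr7. Microbial products are sensed in these cells through receptors that feed NF-κB and interferon pathways.

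The pGF library held 23335071 UMIs and the SPF library 46830975, with a median of 2440 and 3037 UMIs per kept barcode. Of the kept barcodes, 97 sequences were shared between the libraries. Ptprc, which encodes CD45, stood at 837 CPM in pGF against 636 CPM in SPF over all kept barcodes, where CPM is a gene's UMIs scaled to one fixed total of UMIs. Haemoglobin genes gave 0.0153% of kept UMIs in pGF and 0.559% in SPF. Neutrophil RNA also reached the gates of other cells: the summed level of 18 neutrophil genes was 114 CPM in pGF against 1064 CPM in SPF in γδ T cells, 61.6 and 2104 CPM in B cells, and 505 and 6365 CPM in macrophages. Plasma cell RNA (6 genes) went the other way in γδ T cells, with 618 CPM in pGF against 195 CPM in SPF. The part of this other-cell RNA in the results below was not tested. Cell types were taken from gates on named markers, and barcodes that met the gates of more than 1 lineage (226 in pGF and 1000 in SPF) were set aside.

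The 2 libraries differed in which T cells they held. Cells with CD8αβ were 7.23% of kept pGF barcodes (exact 95% binomial interval 6.61% to 7.88%) and 2.07% of SPF barcodes (1.81% to 2.36%). CD4 T cells without Foxp3 were 2.47% in pGF (2.11% to 2.88%, 162 cells) and 0.310% in SPF (0.214% to 0.436%, 33 cells). γδ T cells as gated differed little, at 15.2% in pGF (14.3% to 16.0%) and 13.5% in SPF (12.8% to 14.1%). Of 992 pGF and 1433 SPF cells in this gate, 702 and 756 held no UMI of Trac, the α chain gene. The γδ shares here, also those within T cells, therefore depend on how the gate is drawn. CD8αα T cells were 16.5% in pGF (15.6% to 17.4%) and 9.52% in SPF (8.97% to 10.1%), a log2 ratio of 0.79 that was 0.095 with cells thinned to 1000 UMIs. Regulatory T cells were 0.550% (0.385% to 0.760%, 36 cells) and 0.301% (0.206% to 0.425%, 32 cells). These intervals, like all others here, cover counting error only, and the gates are shares of one another: neutrophils alone were 1.13% of pGF and 28.2% of SPF barcodes. With neutrophils left out of the total, γδ T cells were the smaller share in pGF, at 15.3% against 18.8%. CD8αβ T cells then stood at 7.31% and 2.88%, and the log2 ratio of the shares of CD4 T cells without Foxp3 was 2.53. Within the T cells alone, γδ cells made up 23.3% in pGF and 41.4% in SPF, CD8αα cells 25.3% and 29.3%, CD8αβ cells 11.1% and 6.36%, and CD4 cells without Foxp3 3.81% and 0.954%. T cells that met none of these subset rules were 35.6% and 21.1% of T cells. Among antigen-presenting cells, dendritic cells took nearly equal shares, 1.39% in pGF (91 cells) and 1.33% in SPF (141 cells), with overlapping intervals.

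**Figure D1:**
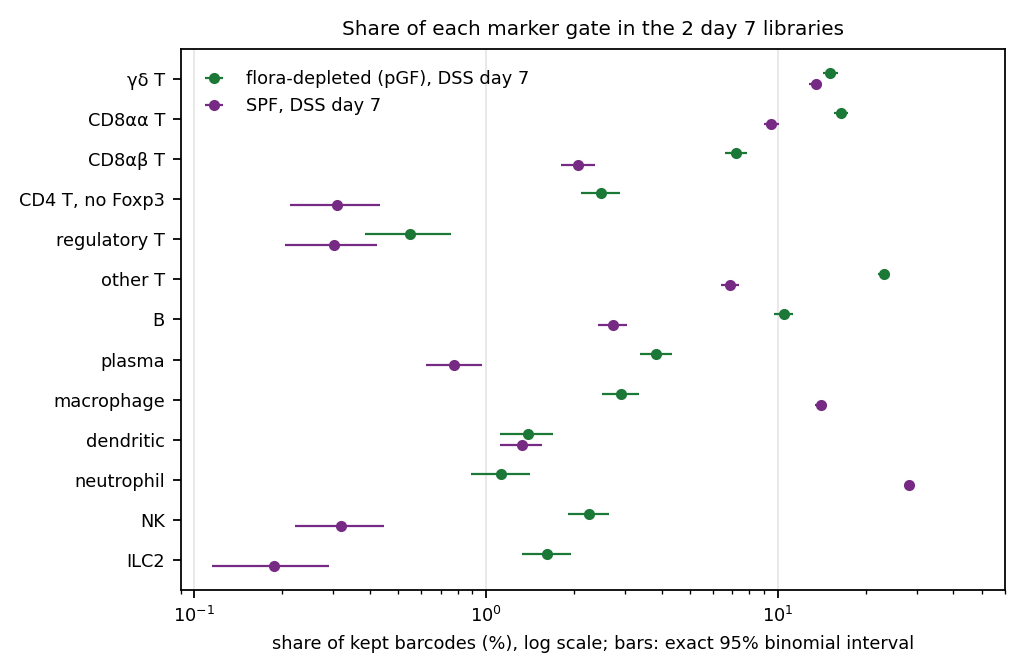
Share of kept barcodes (percent, log axis) in each marker gate for the pGF and SPF libraries at day 7, with exact 95% binomial intervals as bars. The intervals of the pGF and SPF points overlap for dendritic cells (1.39% and 1.33%) and lie far apart for CD8αβ T cells (7.23% and 2.07%) and neutrophils (1.13% and 28.2%).

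Within each gate UMIs were summed per library and genes were compared as the log2 ratio of (CPM + 10), pGF over SPF. A gene entered with at least 10 CPM and 10 UMIs in one library, and it is called higher or lower where the ratio is at least 2-fold. In γδ T cells (992 pGF and 1433 SPF cells) the granzymes were lower in pGF and a set of immediate-early and heat-shock genes was higher. Over all genes compared in this gate, 1.21% were higher and 1.2% lower, with a median log2 ratio of -0.01. Trdc, the δ chain constant gene used for the gate, stood at 831 CPM in pGF against 706 CPM in SPF. Gates were not pure: Trac, the α chain gene, stood at 156 and 242 CPM, and 70.8% of pGF and 52.8% of SPF cells of the gate held no Trac UMI, at a median of 2694 and 3419 UMIs per cell.

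Of 12 cytotoxic granule genes, 11 were measured in γδ T cells, and 4 were lower and none higher in pGF (list median -0.21). Gzma, the granzyme A protease, stood at 6294 CPM in pGF against 18340 CPM in SPF (log2 ratio -1.54). Gzmb, granzyme B, which cleaves caspases in target cells, stood at 864 and 2757 CPM (-1.66), and it was also lower in pGF at day 0 (-1.31) and day 2 (-1.64). Gzmk stood at 20.5 and 83.6 CPM (-1.62), but its log2 ratio was 0.07 at day 0 and 0.44 at day 2. For Gzma those values were -0.56 and -0.88. The day 0 and day 2 libraries differed from those of day 7 in depth and quality, so values across days, here and below, are only descriptive. The chemokine gene Ccl5, which is stored in cytotoxic cells, was lower too, with 11160 CPM in pGF against 24630 CPM in SPF (-1.14). The difference did not extend over the granule list: Prf1, the perforin pore, stood at 29.7 and 34.6 CPM (-0.17), and Nkg7, a granule membrane protein, at 1429 and 1885 CPM (-0.40). In B cells, which do not make it, Gzma stood at 10.1 CPM in pGF against 73.3 CPM in SPF. The inhibitory receptor gene Tigit was lower, with 66.3 and 173 CPM (-1.26). Cd200r2 was lower as well, with 83.4 and 222 CPM (-1.31). Cell cycle genes were also lower in part, 6 of 17 measured and none higher (median -0.76), with Mki67, a marker of cycling cells, at 12.3 and 47.2 CPM (-1.36). In the cells of this gate without Trac, 3 of 15 measured cell cycle genes were lower and none higher (median -0.37).

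The genes higher in pGF γδ T cells were led by Nr4a3, an orphan nuclear receptor induced by antigen receptor signalling, at 516 CPM in pGF against 44.5 CPM in SPF (3.27). The AP-1 subunit gene Fosl2 stood at 487 and 82.99 CPM (2.42). Over the list of 21 immediate-early genes, 8 were higher and 1 lower (median 0.86). The inducible HSP70 genes Hspa1a and Hspa1b, which refold damaged proteins, stood at 307 and 39.3 CPM (2.68) and at 496 and 77.3 CPM (2.54), and 7 of 11 measured heat-shock genes were higher with none lower (median 1.04). The TNF receptor gene Tnfrsf1b was higher as well, with 486 and 162 CPM (1.53). Of 9 measured naive and homing genes, which mark circulating T cells, 5 were higher and none lower (median 1.20). Klf2, a transcription factor that keeps T cells recirculating, stood at 86.1 CPM in pGF against 15.2 CPM in SPF (1.93), and Ccr7, the lymph-node homing receptor, at 24.3 and 1.67 CPM (1.55). In the γδ cells without Trac (702 and 756 cells), 3 of 10 naive and homing genes were higher (median 0.75), 4 of 11 granule genes lower, 7 of 20 immediate-early genes higher and 1 lower (median 0.86), and 8 of 12 heat-shock genes higher (median 1.01). No gene of the T cell receptor complex list (13 measured) or the oxidative phosphorylation list (27 measured) was 2-fold apart. At day 0 the immediate-early and heat-shock medians of the γδ gate were -0.77 and -0.74. The part of digestion and sorting in these 2 lists was not tested, here or in the other gates. With 1 library a side it cannot be told apart from flora depletion.

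CD8αα T cells (1077 and 1012 cells) repeated much of this profile, with 1.02% of genes higher and 1.06% lower over the whole gate and a median of -0.01. The gate took cells with Cd8a and no UMI of Cd8b1 or Trdc, so γδ or CD8αβ cells with those transcripts undetected can fall in it. With cells thinned to 1000 UMIs it held 802 and 1028 cells, and the γδ gate held 602 and 756. The gates are therefore not separate populations. Gzma stood at 2860 CPM in pGF against 10760 CPM in SPF (-1.91), and Gzmb at 354 and 1418 CPM (-1.97). At day 0 their log2 ratios were 0.37 and -0.21, and at day 2 they were -1.08 and -1.92. Ccl5 stood at 6463 and 15950 CPM (-1.30). Both granzymes were thus lower than in γδ cells in each library, and lower in pGF than in SPF in each gate. Glp1r, the receptor for the gut hormone GLP-1 that intraepithelial lymphocytes are known to carry, stood at 22.1 and 69.8 CPM (-1.31). On the higher side, Nr4a3 stood at 469 and 48.9 CPM (3.02), Hspa1a at 330 and 35.2 CPM (2.91) and Fosl2 at 447 and 88.2 CPM (2.22). Of 21 immediate-early genes 8 were higher and 1 lower (median 0.80), and of 12 heat-shock genes 7 were higher (median 1.08).

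In CD8αβ T cells (473 and 220 cells) 1.76% of genes were higher and 1.53% lower (median -0.08). Scaling by TMM, a trimmed mean of gene ratios with a log2 factor of -0.15 here, gave 182 higher and 90 lower genes in place of 140 and 122. Gzma stood at 1675 CPM in pGF against 7557 CPM in SPF (-2.17), and Gzmb at 448 and 1686 CPM (-1.89). Gzmc, a further granzyme, gave 1 UMI in pGF and 146 in SPF (CPM ratio interval 9.1e-05 to 0.0205), but 66.4% of its SPF UMIs came from 1 cell. Genes shared with natural killer cells were lower in part, 3 of 10 measured (median -0.83). The signalling adaptor Tyrobp stood at 37.7 and 222 CPM (-2.28). Cd7, a surface glycoprotein of T and natural killer cells, stood at 390 and 1540 CPM (-1.96). The gut homing receptor Ccr9 was lower at 86.6 and 187 CPM (-1.02).

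Some costimulatory and homing receptors were higher in pGF CD8αβ cells. Cd28, the main costimulatory receptor, stood at 176 CPM in pGF against 57.0 CPM in SPF (1.48), and Ctla4, its inhibitory counterpart, at 232 and 71.2 CPM (1.58). Icos stood at 127 and 45.6 CPM (1.30). In the other direction, Tigit was lower (-1.12). Of 17 costimulatory and inhibitory receptor genes, 14 were measured, 3 higher and 2 lower. Ccr7 stood at 216 and 68.3 CPM (1.53), S1pr1, the receptor for exit from tissue, at 71.6 and 18.5 CPM (1.52), and 5 of 12 naive and homing genes were higher with none lower (median 0.69). Nr4a3 was again first, at 570 and 37.0 CPM (3.62), and here 13 of 21 immediate-early genes were higher and 1 lower (median 1.16). Nr4a1 stood at 525 and 86.9 CPM (2.47) and Irf4, a transcription factor graded by receptor signal strength, at 95.7 and 17.1 CPM (1.96).

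**Figure D2:**
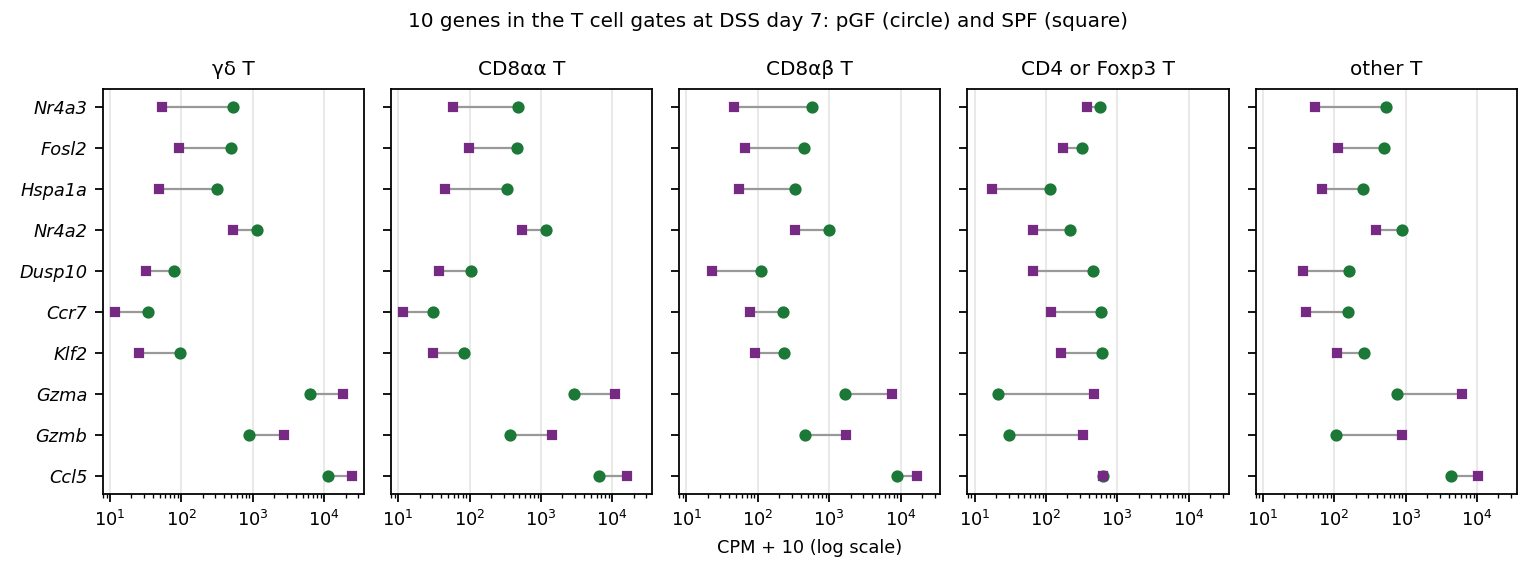
Level of 10 genes (CPM + 10, log axis) in 5 T cell gates at day 7, with a circle for pGF and a square for SPF joined by a line. Gzma and Gzmb lie to the left in pGF in each gate, and Nr4a3 lies to the right, from 3.02 to 3.62 on the log2 scale in the γδ and both CD8 gates and 0.57 in CD4 or Foxp3 cells.

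CD4 T cells and regulatory T cells held fewer than 50 SPF cells each, so they were compared as a joined gate (198 and 65 cells), a choice made after the cell numbers were seen. In that gate 6.02% of genes were higher and 7.5% lower (median 0.00), and TMM scaling (log2 factor -0.13) gave 496 higher and 342 lower genes in place of 360 and 449. Cells of the regulatory gate were 18.2% of the joined pGF cells (36 of 198) and 49.2% of the joined SPF cells (32 of 65), and this mix moves with every value of the joined gate. The values of the 2 gates are therefore given apart, as a description of few cells.

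Of the 17 costimulatory and inhibitory receptor genes, 8 were lower and 2 higher in the joined gate (median -0.86), and several stood lower in pGF in each of its 2 parts. Tnfrsf9, the costimulatory receptor 4-1BB, stood at 32.5 CPM in pGF against 145 CPM in SPF in CD4 cells without Foxp3, and at 163 and 972 CPM in regulatory cells. Il2ra, the high-affinity chain of the interleukin-2 receptor, stood at 32.5 and 63.5 CPM in the former and at 173 and 939 CPM in the latter. Its CD4 values rest on 14 and 7 UMIs. In the joined gate 25% of the SPF UMIs of Il2ra, and 15.1% of those of Tnfrsf9, came from 1 cell. Tnfrsf4, which encodes OX40, stood at 116 and 417 CPM, and at 631 and 1600 CPM. Ctla4 stood at 195 and 544 CPM, and at 1385 and 3459 CPM. Other members did not stand lower in both gates. Icos was at 292 and 290 CPM in CD4 cells and at 886 and 1056 CPM in regulatory cells, and Cd28 at 411 and 381 CPM in CD4 cells and 438 and 356 CPM in regulatory cells. Foxp3 itself was level in the regulatory gate, at 580 and 583 CPM. Il10, which encodes the main suppressive cytokine of colonic regulatory T cells, ran the other way there, at 407 CPM in pGF against 90.7 CPM in SPF (40 and 14 UMIs), with 39.5 and 99.8 CPM in CD4 cells without Foxp3.

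Several genes of recirculating T cells stood higher in pGF in both gates and others did not. Ccr7 stood at 650 CPM in pGF against 227 CPM in SPF in CD4 cells and at 295 and 25.9 CPM in regulatory cells (29 and 4 UMIs). Klf2 stood at 648 and 254 CPM, and at 377 and 84.2 CPM (37 and 13 UMIs). Lef1, a transcription factor of naive T cells, stood at 402 and 263 CPM, and at 102 and 38.9 CPM (10 and 6 UMIs). Il7r, the interleukin-7 receptor chain, ran the other way, at 450 and 789 CPM in CD4 cells and at 275 and 583 CPM in regulatory cells. Tcf7, a transcription factor of naive and memory T cells, was split. It stood at 439 and 653 CPM in CD4 cells and at 173 and 25.9 CPM in regulatory cells (17 and 4 UMIs). In the joined gate, whose share of regulatory cells differed, 7 of 12 naive and homing genes were higher and none lower (median 1.25). Dusp10, a phosphatase that switches off stress kinases, stood at 504 and 118 CPM in CD4 cells and at 183 and 12.96 CPM in regulatory cells (18 and 2 UMIs).

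Many interferon-inducible genes stood lower in the joined gate, whose share of regulatory cells differed. Of 15 interferon-inducible GTPases, which act on pathogen vacuoles, 14 were measured in the joined gate and 10 were lower (median -1.15). Of 24 measured type I interferon-stimulated genes, 11 were lower and none higher (median -0.68). Isg15, a ubiquitin-like modifier, stood at 85.9 and 354 CPM in CD4 cells and at 153 and 460 CPM in regulatory cells. Gbp2 stood at 18.6 and 109 CPM, and at 10.2 and 175 CPM (1 and 27 UMIs). Some members did not stand lower in both parts: Igtp was at 81.2 and 63.5 CPM in CD4 cells, and Gbp6 at 112 and 104 CPM in regulatory cells. In γδ and CD8αα cells these lists were near the median of all genes (γδ: -0.10 and -0.21). The most extreme cytokine genes rested on single cells: Il22 gave 3 UMIs in pGF and 76 in SPF (CPM ratio interval 0.00398 to 0.0599), 86.8% of the latter in 1 cell, and Il21 gave 0 and 31 UMIs, all in 1 cell, a level at least 20.7-fold lower in pGF. Tnf gave 7 and 86 UMIs, 91% of the SPF ones in 1 cell. The SPF UMIs of these cytokine genes lay in the regulatory gate, apart from 1 UMI of Tnf.

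Across the 5 T cell comparisons (the 3 above, the joined gate and the T cells of no subset), 17 genes were higher and 14 lower in every one. These comparisons use the same 2 libraries. Of the 17 higher genes, 7 stood at 25% or more of their level in the highest gate throughout: Amd1, Dusp5, Ifrd1, Rgs2, Sik1, Tob2 and Vps37b. Amd1 makes the aminopropyl donor for polyamines and ranged from 1.19 to 1.83 on the log2 scale. Tob2, an antiproliferative gene, ranged from 1.48 to 1.75. Of the 14 lower genes only Serpina3g, a protease inhibitor gene of activated T cells, met the same limit (-1.09 in γδ and -1.24 in CD8αβ cells), Capg, Gzma and Gzmb passed it in some gates, and the other 10, neutrophil or macrophage products such as S100a8, Lcn2 and Saa3 among them, were at 4.07% or less of their highest gate. T cells of no subset (1512 and 730 cells, 1.25% of genes higher and 1.96% lower, median -0.04) had Gzma at 737 and 6078 CPM (-3.03) and Nr4a3 at 519 and 44.3 CPM (3.28).

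B cells (686 and 289 cells) differed in few genes, 1.2% higher and 1.58% lower (median 0.02). Cd79a, part of the B cell receptor, stood at 2557 CPM in pGF against 2613 CPM in SPF, and Ms4a1, which encodes CD20, at 612 and 440 CPM. Fcer2a, the low-affinity IgE receptor of follicular B cells, was higher in pGF, at 348 and 94.1 CPM (1.78). Cd55, a complement regulator also high on follicular cells, stood at 604 and 250 CPM (1.24). Over the list of 21 mature and naive B cell genes only these 2 were higher and none lower (median 0.29). Rel, an NF-κB subunit induced by receptor signalling, stood at 926 and 378 CPM (1.27). Egr3 stood at 169 and 47.8 CPM (1.63) and Nr4a2 at 72.5 and 11.2 CPM (1.96), and of 20 measured immediate-early genes 5 were higher and 2 lower (median 0.12). Txnip, which restrains glucose uptake, stood at 576 and 190 CPM (1.55).

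Lower in pGF B cells were Fkbp5, a glucocorticoid-induced chaperone gene, at 14.5 and 105 CPM (-2.23), and Ptpn22, a phosphatase that damps receptor signalling, at 44.9 and 222 CPM (-2.08). Ccnd3, cyclin D3, stood at 59.4 and 196 CPM (-1.57), and Jun at 124 and 378 CPM (-1.53). Of 9 measured glucocorticoid-responsive genes 3 were lower and 1 higher (median -0.16): Ddit4 stood at 6.52 and 52.6 CPM (-1.92) and Pik3ip1 at 43.5 and 129 CPM (-1.38), while Txnip was the higher one. The heat-shock genes went against the T cells, with 2 of 10 measured lower and none higher (median -0.67). Hspa1a stood at 34.1 CPM in pGF against 116 CPM in SPF (-1.52), with 23.3% of its SPF UMIs in 1 cell. The other lower gene, Hspa1b, stood at 81.2 and 239 CPM (-1.45), with 25.3% of its SPF UMIs in 1 cell. Class II presentation genes (11 measured) and type I interferon-stimulated genes (18 measured) had no member 2-fold apart. Most B cells with a leading heavy chain were led by Ighm, 316 of 369 in pGF and 107 of 127 in SPF, and Igha led 16 and 8.

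Plasma cells (251 and 83 cells) had 3.39% of genes higher and 2.13% lower (median 0.20), and TMM scaling (log2 factor 0.23) gave 120 higher and 123 lower genes in place of 164 and 103. Nearly all were IgA cells: Igha led in 243 of 251 pGF and 81 of 83 SPF cells, at 175400 and 119300 CPM. Light chains differed, with Igkc at 79140 CPM in pGF against 43720 CPM in SPF (0.86) and Iglc2 at 3060 and 848 CPM (1.84), while Iglc1 stood at 2082 and 4848 CPM (-1.22), with 23.6% of its SPF UMIs in 1 cell. Other heavy chains rested on single cells: 60% of Ighg1 UMIs in pGF came from 1 cell, and 86% of pGF and 91% of SPF Ighm UMIs from 1 cell each.

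Of 17 measured genes of the plasma cell survival receptor list 2 were higher in pGF and none lower (median 0.61). Tnfrsf17, which encodes the survival receptor BCMA, stood at 159 CPM in pGF against 60.9 CPM in SPF (1.25), and Cd28 at 184 and 68.2 CPM (1.31). Sdc1, the plasma cell syndecan, stood at 255 and 141 CPM (0.81). Tnfrsf17 and Sdc1 helped to define the gate, as did Xbp1, Mzb1 and Derl3 of the antibody secretion list, so their values only describe it. Also higher were Lmna, the nuclear lamin A gene, at 174 and 31.7 CPM (2.15), Txnip at 431 and 136 CPM (1.60), Stt3b, a subunit that attaches N-glycans to secreted proteins, at 98.4 and 26.0 CPM (1.59), and the chemokine gene Cxcl10 at 327 and 111 CPM (1.48). The antibody secretion list was level, with 1 of 29 measured genes lower and none higher (median 0.03). That gene was Herpud1, of the endoplasmic reticulum stress response, at 626 and 1279 CPM (-1.02). Xbp1, the transcription factor of secretory cells, stood at 1029 and 858 CPM (0.26). Lower in pGF were Sbno2, a gene induced by interleukin-10 signalling, at 6.03 and 72.3 CPM (-2.36), Lgals3bp, a secreted galectin ligand, at 15.9 and 81.2 CPM (-1.82), and the amino acid transporter gene Slc7a5 at 31.3 and 85.3 CPM (-1.21).

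Macrophages (190 and 1493 cells) differed in more genes than any other gate compared, with 10.6% higher and 5.45% lower (median 0.28). Scale and depth matter here: TMM (log2 factor 0.59) gave 300 higher and 845 lower genes in place of 757 and 391. Thinning to 1000 UMIs (132 and 671 cells) gave 454 higher and 742 lower. The direction with more genes thus changed under both. Of the gate's markers, Csf1r, the macrophage growth factor receptor, stood at 682 CPM in pGF against 442 CPM in SPF, Cd68 at 244 and 264 CPM, and the complement gene C1qa at 1944 and 405 CPM. Barcodes with 2 or more C1q UMIs were 76.3% of pGF (69.6% to 82.2%) and 37.6% of SPF macrophages (35.2% to 40.2%). C1q genes helped to define the gate, and cells had a median of 3000 and 6327 UMIs, so these shares, taken without thinning, only describe it. Haemoglobin genes summed to 1.31 CPM in pGF against 11120 CPM in SPF in this gate.

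Genes of arriving monocytes were lower in part in pGF, and most genes of the glycolysis and hypoxia list were lower. Of 18 monocyte entry genes 9 were lower and 1 higher (median -1.01; -1.59 under TMM). Chil3, a chitinase-like lectin, stood at 167 CPM in pGF against 4127 CPM in SPF (-4.55), Hp, haptoglobin, at 66.5 and 1846 CPM (-4.60), and Thbs1, thrombospondin, at 903 and 6627 CPM (-2.86). F10, coagulation factor X, stood at 52.2 and 628 CPM (-3.36). The exception was Ccr2, the receptor that brings monocytes into tissue, at 574 and 176 CPM (1.65). Of 20 measured glycolysis and hypoxia genes 14 were lower and none higher (median -1.36; -1.88 under TMM). Hif1a, the oxygen-regulated transcription factor, stood at 202 and 555 CPM (-1.41), Pkm, pyruvate kinase, at 274 and 966 CPM (-1.78), and Slc2a1, the glucose transporter GLUT1, at 39.1 and 138 CPM (-1.59). Egln3, an oxygen sensor induced by hypoxia, gave 0 UMIs in pGF and 206 in SPF, a level at least 5.56-fold lower.

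Tissue repair and alternative activation genes were split, with 11 of 24 measured lower and 6 higher (median -0.65; -1.22 under TMM). Outside that list, Csf3, which encodes the neutrophil growth factor G-CSF, gave 2 UMIs in pGF and 6578 in SPF, at 2.61 and 695 CPM (CPM ratio interval 0.000455 to 0.0136). Inhba, the activin A subunit, also outside it, stood at 13.1 and 668 CPM (-4.88). Among the lower members of the list were Timp1, a metalloproteinase inhibitor, at 27.4 and 492 CPM (-3.75), Spp1, osteopontin, at 10.4 and 249 CPM (-3.66), and Arg1, arginase, with 3 and 2728 UMIs (CPM ratio interval 0.0028 to 0.0397). Among iron genes, Fth1, the ferritin heavy chain, stood at 8525 and 43040 CPM (-2.33) and Hmox1, which degrades haem, at 120 and 477 CPM (-1.91), whereas Slc40a1, the iron exporter ferroportin, stood at 53.5 and 2.11 CPM (2.39). Type I interferon-stimulated genes were lower in part, 8 of 31 measured and none higher (median -0.50; -0.96 under TMM), with Isg15 at 247 and 716 CPM (-1.50).

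Some alternative activation, lipid and stress genes were higher in pGF macrophages. Mgl2, a C-type lectin of alternatively activated macrophages, stood at 132 CPM in pGF against 3.59 CPM in SPF (3.38), and Mrc1, the mannose receptor, at 350 and 84.1 CPM (1.93). Retnla, a further alternative-activation gene, stood at 1096 and 5.39 CPM (6.17), with 48% of its pGF UMIs in 1 cell. Lipid and lysosome genes were split, 9 of 31 higher and 5 lower (median 0.52, and -0.045 under TMM): Cd36, a fatty acid scavenger receptor, stood at 86.1 and 7.08 CPM (2.49), Lpl, lipoprotein lipase, at 62.6 and 3.80 CPM (2.40), and Apoe at 11940 and 4022 CPM (1.57). Immediate-early genes were higher in 12 of 21 and lower in 1 (median 1.33; 0.75 under TMM), with Fosb at 776 and 80.0 CPM (3.13), and the 1 lower gene was Ier3, at 519 and 2162 CPM (-2.04). Heat-shock genes were higher in 8 of 11 and lower in none (median 1.28; 0.72 under TMM), with Hspa1b at 732 and 73.2 CPM (3.16). Igf1, an insulin-like growth factor made by resident macrophages, stood at 54.8 and 1.796 CPM (2.46).

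Among macrophages with 2 or more C1q UMIs (145 and 562 cells, a narrower gate chosen after the data had been seen; median of all genes 0.12), 14 of 17 monocyte entry genes were lower and 1 higher (median -2.00). In the same cells 16 of 21 glycolysis and hypoxia genes were lower (median -1.57), 13 of 31 interferon-stimulated genes were lower (median -0.86), 8 of 11 heat-shock genes were higher (median 1.32) and 9 of 21 immediate-early genes were higher with 1 lower (median 0.77). The directions of these lists were thus the ones seen in the whole gate.

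**Figure D3:**
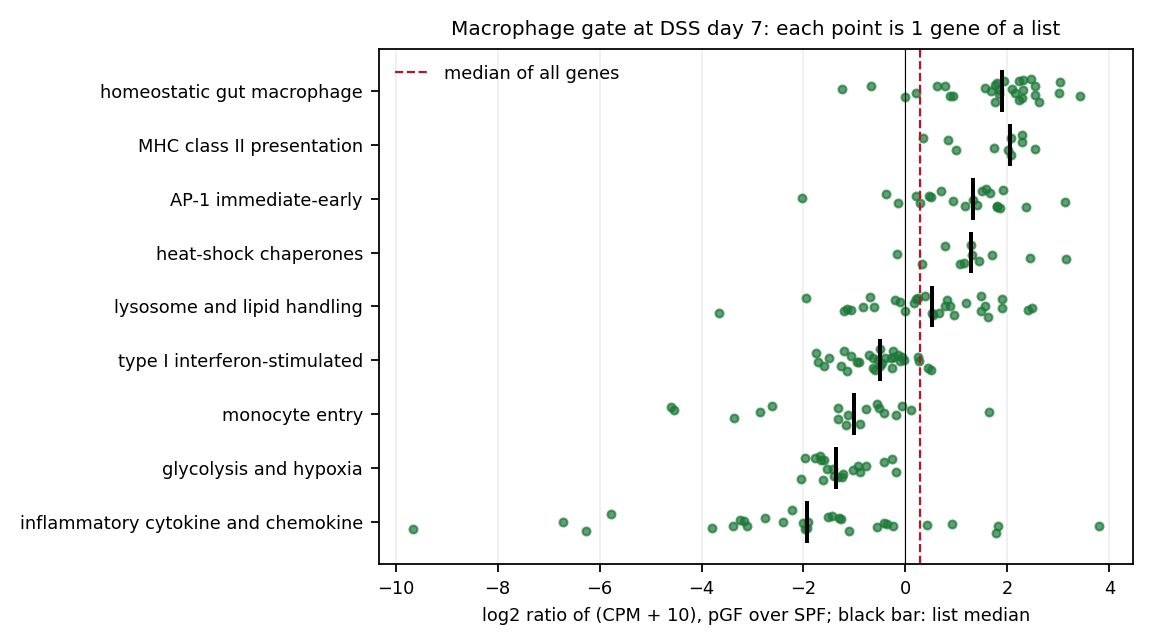
Log2 ratio of (CPM + 10), pGF over SPF, for each measured gene of 9 lists in macrophages at day 7, with a black bar at each list's median and a dashed line at the median of all genes (0.28). The glycolysis and hypoxia genes sit to the left of the dashed line (median -1.36) and most heat-shock genes to its right (median 1.28).

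Neutrophil-attracting chemokines stood lower in pGF macrophages, and their promoters are shown because they share a run of letters. Cxcl3 stood at 79.6 CPM in pGF against 4902 CPM in SPF (-5.78), Cxcl2 at 4018 and 21390 CPM (-2.41), and Cxcl1 at 244 and 988 CPM (-1.97). Their start sites lie on chromosome 5 and the segments below are upstream of them, on the plus strand of RefSeq GRCm38.p6, with matches to an NF-κB motif (GGGAA, any 3 bases, then CC, on either strand) in capitals and 25 bases on each side. Cxcl1 lies at chr5:90891130-90891209, Cxcl2 at chr5:90903777-90903837 and Cxcl3 at chr5:90786003-90786063.
Cxcl1: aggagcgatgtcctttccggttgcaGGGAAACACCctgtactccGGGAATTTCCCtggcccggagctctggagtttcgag
Cxcl2: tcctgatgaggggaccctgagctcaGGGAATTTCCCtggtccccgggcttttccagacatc
Cxcl3: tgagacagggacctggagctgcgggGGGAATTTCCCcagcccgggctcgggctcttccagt
All 3 hold the same 11 letters, GGGAATTTCCC, which match on both strands. The motif was found in the 250 bases before the start of 7 of 21 inflammatory cytokine and chemokine genes with a promoter (33.3%), and of 1520 of all 27025 genes (5.62%). A match describes these letters and is not evidence of binding.

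Dendritic cells (91 and 141 cells) showed a lower interferon and maturation profile in pGF, with 6.66% of genes lower and 3.32% higher (median -0.05). Flt3, the growth factor receptor of the lineage, stood at 191 CPM in pGF against 139 CPM in SPF, and the macrophage gene C1qa at 8.06 and 4.26 CPM. Maturation genes and type 1 genes helped to define the gate. Cells with a UMI of Xcr1 or Clec9a, the type 1 markers, were 41.8% of the pGF (31.5% to 52.6%, 38 cells) and 15.6% of the SPF dendritic cells (10.0% to 22.7%, 22 cells). Cells without UMIs of Ccr7, Fscn1, Ccl22 and Cacnb3 were 73.6% and 40.4%, at a median of 4556 and 6230 UMIs per cell and without thinning. The mix of dendritic states therefore moves with the values below, and narrower gates, chosen after the data had been seen, are given beside them.

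Of 32 measured type I interferon-stimulated genes 23 were lower in pGF and none higher (median -1.56, and -1.59 with genes at 0 set at their bound). Isg15 stood at 72.5 CPM in pGF against 1434 CPM in SPF (-4.13). Oasl1, an oligoadenylate synthetase-like gene, gave 2 and 159 UMIs (CPM ratio interval 0.00286 to 0.0874). Ifit1, which binds viral RNA caps, gave 0 and 47 UMIs, at least 8.28-fold lower, and Rtp4 0 and 42 UMIs, at least 7.40-fold lower. Rsad2, the antiviral enzyme viperin, stood at 8.06 and 87.4 CPM (-2.43). Irf7, a transcription factor of the pathway, stood at 34.3 and 74.6 CPM (-0.93). Of 13 measured interferon-inducible GTPases 12 were lower (median -1.99, and -2.30 at the bounds). Gbp2 stood at 14.1 and 162 CPM (-2.83), Gbp5 gave 3 and 139 UMIs (ratio interval 0.00832 to 0.122), and Iigp1 gave 0 and 59 UMIs, at least 10.4-fold lower. At day 2 the pGF over SPF medians of these lists in dendritic cells were 0.79 (11 of 27 measured higher) and 0.19, so the libraries stood the other way round for the first list. The list of plasmacytoid dendritic genes, which shares Irf7 and Bst2 with it, also stood higher in pGF at day 2. The part of this shift in the gate's mix, or in the quality of the day 2 libraries, was not tested.

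Upstream segments of 5 of these genes are shown because the letters common to interferon-stimulated response elements recur in them. Matches to GAAA, any 2 bases and GAAA again, on either strand, are in capitals, with 25 bases on each side, each read 5′ to 3′ on the gene's strand from RefSeq GRCm38.p6. Isg15 lies at chr4:156200850-156200921 (minus strand) and Rsad2 at chr12:26456538-26456597 (minus strand). Ifit1 lies at chr19:34640760-34640838, Gbp5 at chr3:142496744-142496803 and Gbp2 at chr3:142620579-142620638 (plus strand).
Isg15: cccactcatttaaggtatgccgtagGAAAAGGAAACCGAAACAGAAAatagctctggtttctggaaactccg
Ifit1: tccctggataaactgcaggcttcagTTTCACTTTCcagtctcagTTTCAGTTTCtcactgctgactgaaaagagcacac
Rsad2: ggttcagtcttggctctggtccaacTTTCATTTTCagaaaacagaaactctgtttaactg
Gbp5: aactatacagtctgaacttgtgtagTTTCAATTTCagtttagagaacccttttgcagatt
Gbp2: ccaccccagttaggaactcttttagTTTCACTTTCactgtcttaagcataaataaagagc
Isg15 holds 3 overlapping matches, Ifit1 holds 2 and the other genes 1 each. Of the genes with a promoter in the table, 15 of 28 on the interferon-stimulated list (53.6%) and 9 of 10 GTPases (90%) held the motif in the 250 bases before their start, and 936 of all 27025 genes did (3.46%). None of 18 maturation genes held it, and 1 of the 18 held the NF-κB motif (5.56%).

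Maturation genes were lower in 21 of 24 measured and higher in none (median -1.73). Since Ccr7, Fscn1, Ccl22 and Cacnb3 served the gate, the other members carry the description. Ccl5, which attracts T cells, stood at 60.5 CPM in pGF against 1733 CPM in SPF (-4.63). Cd40, the receptor for T cell help, stood at 54.4 and 274 CPM (-2.14), and Cd274, the ligand PD-L1, at 64.5 and 294 CPM (-2.03). Il12b, the shared chain of interleukin-12 and interleukin-23, stood at 54.4 and 511 CPM (-3.02), with 41% of its SPF UMIs in 1 cell. Cd86, a ligand of CD28, stood at 143 and 322 CPM (-1.12). In the 67 pGF and 57 SPF cells without the 4 gate genes, 5 of 12 maturation genes were lower (median -0.69), as were 3 of 14 interferon-stimulated genes (median -0.42) and 5 of 7 GTPases (median -1.38), beside a median of -0.09 for all genes. Among the few Xcr1 or Clec9a cells, the GTPases summed to 84.7 CPM in pGF against 375 CPM in SPF, the interferon-stimulated genes to 1912 and 2957 CPM, and the maturation genes to 952 and 5251 CPM. Fewer members of each list passed the filter in the cells without the 4 markers than in the whole gate. The list medians of these cells and of the whole gate therefore cover different genes, and their sizes cannot be compared.

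**Figure D4:**
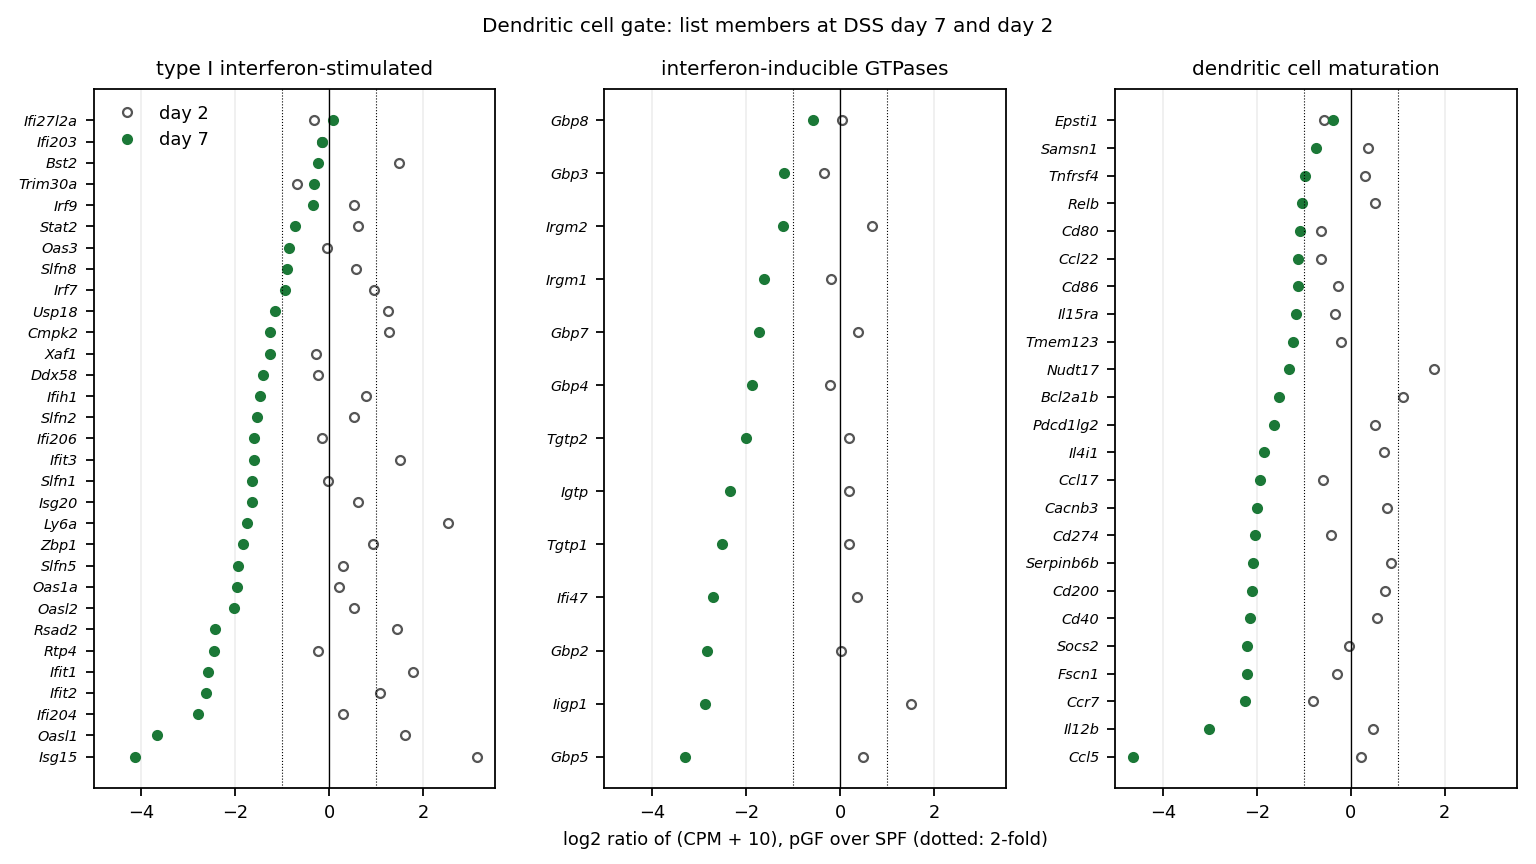
Log2 ratio of (CPM + 10), pGF over SPF, in dendritic cells for measured genes of 3 lists (1 member is not drawn), with filled points for day 7 and open points for day 2; a gene at 0 UMIs in a library is placed by the added 10 CPM. At day 7 the medians over all measured members are -1.56, -1.99 and -1.73, and at day 2 they are 0.79, 0.19 and 0.22.

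Other groups of dendritic cell genes were apart as well. Inflammatory cytokine and chemokine genes were lower in 23 of 28 measured and higher in 2 (median -1.66). Il1rn, the interleukin-1 receptor antagonist, stood at 58.4 CPM in pGF against 704 CPM in SPF (-3.38), and Cxcl9, an interferon-γ-induced chemokine gene, at 98.7 and 336 CPM (-1.67). Il1b stood at 2347 and 3270 CPM (-0.48). Of 19 class I presentation genes 3 were lower (median -0.53), among them Nlrc5, the class I transactivator, at 18.1 and 61.8 CPM (-1.35). Class II genes (11 measured) had 1 higher (median -0.16). Outside the lists, Hamp, which encodes the iron hormone hepcidin, gave 0 UMIs in pGF and 224 in SPF, at least 39.5-fold lower, with 33.0% of them in 1 cell. Ifitm1 stood at 437 and 4319 CPM (-3.28), and Dll4, a Notch ligand, gave 3 and 116 UMIs (ratio interval 0.00994 to 0.147), although its log2 ratio was 0.27 in the cells without the 4 maturation markers. Fth1 stood at 3738 and 13960 CPM (-1.90).

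Of the 240 genes higher in pGF dendritic cells 10 were on the immediate-early list, which had 10 of 21 members higher and none lower (median 0.98). Egr3 stood at 149 CPM in pGF against 7.46 CPM in SPF (3.19), Fosb at 675 and 95.9 CPM (2.69) and Egr1 at 409 and 62.9 CPM (2.52). In the cells without the 4 maturation markers 11 of 21 were higher (median 1.02). Unlike the T cells and macrophages, the heat-shock list had no member apart (11 measured, median -0.02). Type 1 dendritic genes were higher in 5 of 16 and lower in 1 (median 0.53), in the direction of the larger share of Xcr1 or Clec9a cells. Tlr3, the endosomal receptor for double-stranded RNA, stood at 38.3 and 7.46 CPM (1.47) and Tlr11, which senses the parasite protein profilin, at 30.2 and 5.33 CPM (1.39).

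**Figure D5:**
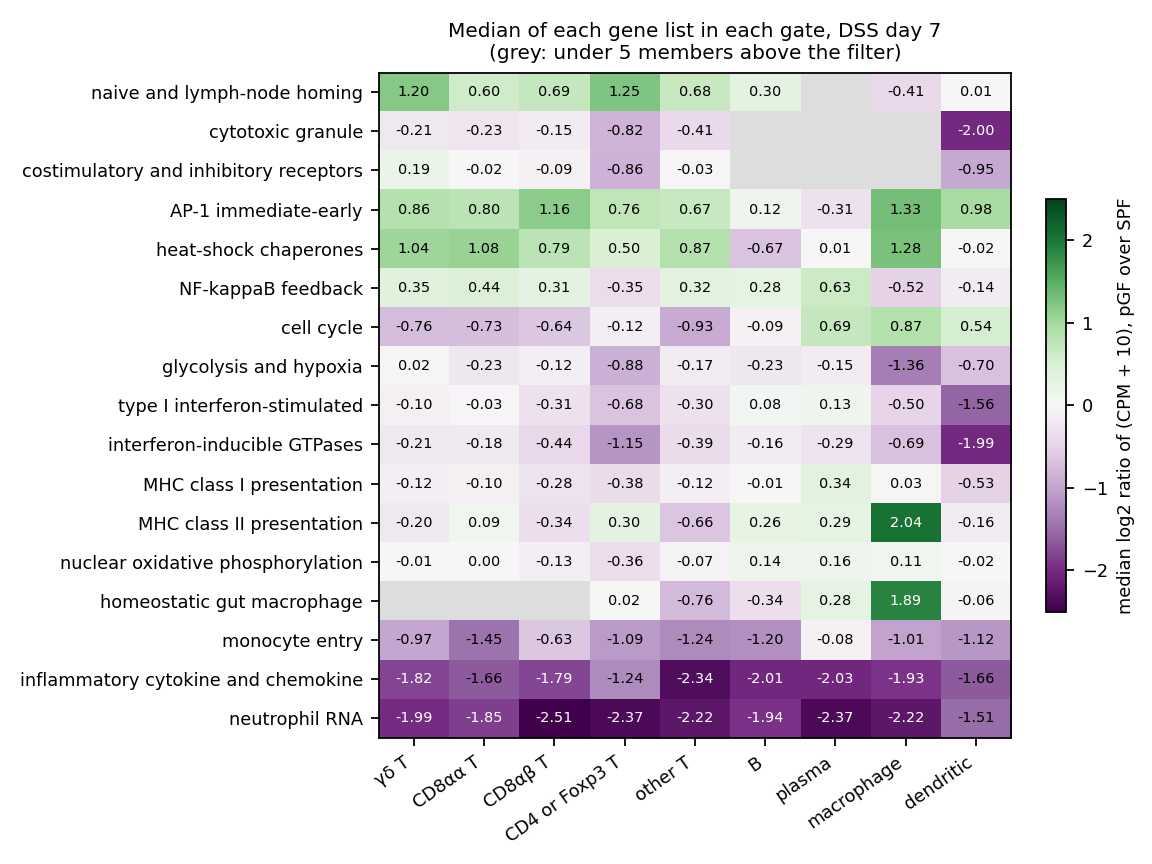
Median log2 ratio of (CPM + 10), pGF over SPF, of 17 gene lists (vertical) in 9 gates (horizontal) at day 7, with grey where fewer than 5 members passed the filter. The immediate-early list runs from 0.67 to 1.33 in the T cell, macrophage and dendritic gates and is -0.31 in plasma cells, and neutrophil RNA is below -1.5 in each gate shown.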

How the data were processed

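Droplet 5' gene expression libraries of CD45-sorted colon cells were used. The files give unscaled UMI counts for each gene in each barcode, as deposited, which the authors made with Cell Ranger 6.1.2 per the file headers, and the submitters' processing notes name mm10, R 4.1.3 and Seurat 4.1.1. The gene table lists 32285 genes, and no doublet caller was run.

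Gates were: T, 2 or more T-lineage UMIs, split by Trdc, Foxp3, Cd8b1, Cd8a and Cd4; B and plasma, 2 or more markers, plasma also 5 or more Jchain UMIs; macrophage and neutrophil, 3 or more; dendritic, 2 or more and 10 class II UMIs. A myeloid barcode meeting several gates went to the one with 60% of its marker UMIs, a rule set after the overlaps were seen. Shares carry exact (Clopper-Pearson) 95% intervals. UMIs were summed per gate and compared as log2 of (CPM + 10) where both libraries held 50 cells. A gene at 0 is given against 3 counts. No test was run, since each group is 1 library. Named genes were the 8 furthest each way at 50 or more CPM and 20 or more UMIs, at 25% or more of the highest gate, or list members. Members and lists were chosen with earlier results of these data known. The joined CD4 gate, the narrower gates, the T cells of no subset and the neutrophil-free total were chosen after seeing the data. Alternatives were other cell filters, thinning to 1000 UMIs, TMM, pseudocounts of 5 and 20, no gene filter, stricter gates and leaving out cells rich in haemoglobin or UMIs. Promoters came from RefSeq GRCm38.p6. The comparison script was tested on simulated data. An item withheld for evaluation is left out of the text. Python 3.11.15, numpy 2.4.6, scipy 1.17.1, pandas 2.3.3 and matplotlib 3.10.9 were used.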

Additional observations from a re-analysis of the deposited data

Results flagged for a closer look

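Some day 7 values had the opposite sign at another day, and none of these differences between days was tested, since each is a single pair of libraries. At day 2, 61.1% of SPF and 19.3% of pGF barcodes were over the 10% mitochondrial limit. Stromal cells were 14.01% of kept SPF and 0.2137% of kept pGF barcodes at that day. Median UMIs per kept barcode were 10459 in SPF and 20744 in pGF at day 0, against 3037 and 2440 at day 7. The part of library quality and make-up in the values below was not tested. In γδ T cells the median log2 ratio (pGF over SPF) of the immediate-early list was 0.86 at day 7 and -0.77 at day 0. The heat-shock list in the same cells was 1.04 at day 7 and -0.74 at day 0. In dendritic cells the type I interferon-stimulated list was -1.56 at day 7 and 0.79 at day 2. The iron and haem handling list in dendritic cells was -0.86 and 0.57 at those days. In macrophages the interferon-stimulated list was -0.50 at day 7 and 0.92 at day 2. The cell cycle list in macrophages was 0.87 at day 7 and -0.68 at day 0, from 8 measured genes at day 7. Plasma cells stood apart by a log2 share ratio of 2.30 at day 7 and -3.70 at day 2.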

How the results depend on the processing

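Each group was 1 library, so leaving out a replicate was not possible. No paired analysis was possible because each group holds 1 library and the labels carry no replicate numbers. Gene counts in CD4 and in regulatory T cells apart could not be made, since SPF held under 50 cells of each. Thinning left too few CD4 or Foxp3 cells for that gate. Genes under 10 CPM or 10 UMIs were left out by choice, and a count of 0 sets only a bound. The cause of the changes below was not tested.

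The log2 share ratio of γδ T cells (0.17) was -0.067 with at least 500 genes per barcode and -0.29 with neutrophils left out of the total. The dendritic cell ratio, 0.07 (interval -0.33 to 0.46), was between -0.39 and -0.06 under 5 alternatives. With at least 500 genes they were 0.56 for CD8αα, 1.54 for CD8αβ, 1.69 for B cells and -2.65 for macrophages. After thinning to 1000 UMIs they were 0.095, 1.45, 1.71 and -1.89. Without neutrophils they were 0.33, 1.34, 1.49 and -2.74, with 1.84 for plasma cells and -0.39 for dendritic cells.

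The number of genes 2-fold apart was 203 in γδ, 175 in CD8αα, 262 in CD8αβ, 214 in B, 267 in plasma, 1148 in macrophage, 721 in dendritic, 809 in CD4 or Foxp3 and 274 in other T cells. Thinning gave 333, 337, 494, 410 and 451 in the first 5 and 457 in dendritic cells. A pseudocount of 5 gave 265 in CD8αα, 467 in CD8αβ, 381 in B and 449 in plasma cells. A pseudocount of 20 gave 122, 98, 127 and 106 in γδ, CD8αα, CD8αβ and B cells, and 707, 395, 476 and 149 in macrophage, dendritic, CD4 or Foxp3 and other T cells. The 9 counts, taken over both directions, stayed within 1.5 times under TMM scaling. The direction with more genes changed under TMM in plasma cells, macrophages and CD4 or Foxp3 cells. Of 607 values of named genes under an alternative, 593 kept sign and fold, but these genes were picked as the furthest apart in these data. Vpreb3 turned to 0.24 in thinned plasma cells, and Dll4 to 0.27 in dendritic cells without the 4 maturation markers. In macrophages under TMM the lysosome list turned to -0.045 and the plasma cell survival receptor list to -0.028.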

Other observations

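Natural killer cells and innate lymphoid cells, which lie outside the gene comparisons, took larger shares of the pGF library. Natural killer cells were 2.26% of kept pGF barcodes and 0.320% of SPF barcodes (148 and 34 cells), and group 2 innate lymphoid cells, a tissue source of type 2 cytokines, were 1.62% and 0.188% (106 and 20 cells). Mast cells were 9 and 13 barcodes. Both natural killer and innate lymphoid cells held under 50 SPF barcodes, so no genes were compared in them.

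Plasmacytoid dendritic genes had no member 2-fold apart at day 7 (11 measured, median 0.15), with Siglech, a receptor of these interferon-producing cells, at 397 CPM in pGF against 356 CPM in SPF. At day 2 the median of that list was 1.49. The nuclear oxidative phosphorylation list had no member 2-fold apart in macrophages (27 measured, median 0.11) beside the lower glycolysis list there.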
